A study of Caenorhabditis elegans with 12 samples.

Results

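The genes described here lie on the distal parts of 4 arms of C. elegans autosomes, the left arms of II, III and V and the right arm of IV. A gene was included when its first exon began between 200 kb and 4 Mb from that chromosome end, when its exons summed to 300 bases or more, and when the number in its WBGene identifier was 7000 or higher. The rule used position, length and identifier only and no measured value. It took 2625 of the 46760 genes counted, or of the 16293 genes that met the length and identifier limits on any chromosome. The II left arm held 956 genes, the III left arm 524, the V left arm 694 and the IV right arm 451. These were 2179 protein-coding genes and 362 annotated pseudogenes, and the others were non-coding RNA genes or had no annotated type.

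The libraries were H3K9me3 CUT&Tag of purified germline nuclei from day 1 adult worms grown at 20 °C. In CUT&Tag an antibody tethers a transposase, so sequenced fragments mark the places the antibody bound. Strains were hrde-1(tm1200) mutants, hrde-2(qe20) mutants and wild-type N2, each with 3 H3K9me3 libraries labelled as biological triplicates and 1 library labelled IgG. The study's methods describe a negative control without primary antibody, and the labels name for the IgG libraries the reagent that those methods list as secondary antibody. The study also reports that the antibody used for H3K9me3 recognised H3K27me3 and H4K20me3, which the counts cannot separate. Each library came from a large pool of synchronised worms, and the labels give the source as whole worm and the fraction as purified germline nuclei. CUT&Tag counts DNA and not transcripts, so the purity of the nuclei could not be checked with marker genes.

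In C. elegans meiosis each chromosome pairs with its homolog through a pairing center, a region near a chromosome end that is rich in short repeats. Zinc-finger proteins of the ZIM and HIM-8 family bind these repeats and link the region to the nuclear envelope. The arms of worm autosomes are also the repeat-rich, gene-family-rich parts of the chromosomes, and H3K9 methylation is known to be denser there than in the centres. HRDE-1 is a germline nuclear Argonaute that is guided by small RNAs and promotes H3K9me3 at matching genes, and HRDE-2 is its partner in RNAi inheritance.

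The reference sequence (WBcel235) was searched for short words that mark these ends, because the arms were chosen as those that carry pairing centers. All words of 12 letters that begin with TTGG were counted on both strands in the outer 4 Mb of each end, and at each end the word with the most copies there, less its copies on the rest of the chromosome, was kept. The words at the left ends of II and III share most of their letters.
II left: TTGGGTCTGCTA
III left: TTGGTCTGCTAA
IV left: TTGGTTGAGGCT
V right: TTGGGCGCTGCT
IV right: TTGGCGGGAAAT
V left: TTGGCTCGGCCA
The II left word had 182 copies on its arm, 0 on the right arm and 5 in the centre of II, and the III left word had 191 copies, against 3 and 2. On IV and V the words with this sharp concentration lay on the other side. The IV left word had 189 copies, against 0 on the right arm and 1 in the centre, and the V right word had 926 copies, against 0 in both. The best word of the IV right arm had 442 copies but also 133 on the left arm and 135 in the centre, and that of the V left arm had 52 copies, against 2 and 3. On the other chromosomes among II to V, the II left word had 223 copies and the III left word 59. These words were picked for their position and are a description only. Worm genetics likewise places the pairing centers of IV and V on the left and right ends. The name of pairing center arms thus fitted the II and III left arms and went against the reference for the IV right and V left arms, so the arms are called by chromosome and side below.

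Total counts on genes ran from 1470699 to 8719542 in the H3K9me3 libraries, with wild-type replicate 2 the shallowest, and from 13950 to 233980 in the IgG libraries. The arms received 126783 to 710389 counts per H3K9me3 library, a mean of 48.3 to 271 counts per gene. The hrde-1, hrde-2 and wild-type IgG libraries placed 2396, 1029 and 12109 counts on them, a mean of 0.913, 0.392 and 4.61 counts per gene, so IgG was read over whole arms and windows and not gene by gene. Genes for rRNA took 13.3% to 24.8% of the H3K9me3 counts. Mitochondrial genes took 3.24%, 2.62% and 2.39% of counts in the hrde-1 libraries, against 1.15%, 1.67% and 1.80% in wild-type, without overlap, and 1.79%, 1.11% and 1.48% in the hrde-2 libraries. To set rRNA, mitochondrial DNA and depth aside, arms were compared by relative density, the counts per kb of exon in the arm divided by the counts per kb over all 16293 genes that met the length and identifier limits in the same library. No rRNA gene was among them. Relative density is a share, so a lower value on the arms goes with a higher value elsewhere. Of the 2625 genes, 5 had no count in any H3K9me3 library and 2615 passed the low-count filter of the gene test.

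In counts per kb of exon, the 4 arms together held 154, 228 and 202 in hrde-1, 163, 195 and 169 in hrde-2 and 189, 40.6 and 217 in wild-type. These values are not corrected for depth, and the lowest of them was in wild-type replicate 2, the shallowest H3K9me3 library. The IgG libraries gave 0.767 counts per kb in hrde-1, 0.330 in hrde-2 and 3.88 in wild-type. As relative density the 3 hrde-1 libraries gave 1.09, 1.14 and 1.07, the hrde-2 libraries 1.10, 1.13 and 1.13, and the wild-type libraries 1.16, 1.19 and 1.20. Every H3K9me3 library was thus above 1, the level over all genes within the length and identifier limits. Each mutant library was below each wild-type library. The mean was 1.10 ± 0.035 in hrde-1 and 1.12 ± 0.016 in hrde-2, against 1.19 ± 0.021 in wild-type (SD, n = 3 each). The difference was −7.44% for hrde-1 and −5.34% for hrde-2. An exact two-sided permutation test gave p = 0.1 for both, which is the smallest p that 3 libraries against 3 can give (adjusted p = 0.125 over the 10 tests of arms and mutants). This test cannot reach 0.05 with 3 libraries a group. The direction in hrde-2 depended on the scaling. As CPM of all counts, rRNA and mitochondrial genes included, hrde-2 minus wild-type was 0.197 CPM per kb for the 4 arms, 0.218 for the IV right arm and 1.38 for the V left arm (exact permutation p = 0.8, 0.9 and 0.4), while the II and III left arms and all hrde-1 differences stayed below 0.

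The 4 arms differed in level. The II left arm was the densest, with 1.22, 1.30 and 1.20 in the hrde-1 libraries, 1.21, 1.29 and 1.29 in the hrde-2 libraries and 1.33, 1.33 and 1.41 in wild-type. The III left arm had 0.956, 1.00 and 0.924 in hrde-1, 0.992, 1.02 and 1.03 in hrde-2 and 1.06, 1.11 and 1.11 in wild-type. On both of these arms the mutant libraries lay below the wild-type libraries without overlap. The IV right arm was the least dense, with 0.910, 0.925 and 0.891 in hrde-1, 0.959, 0.942 and 0.949 in hrde-2 and 0.981, 1.05 and 0.967 in wild-type, again without overlap. The V left arm had 1.15, 1.18 and 1.14 in hrde-1, 1.15, 1.14 and 1.15 in hrde-2 and 1.15, 1.16 and 1.16 in wild-type. Here the mutant libraries overlapped wild-type.

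**Figure D1:**
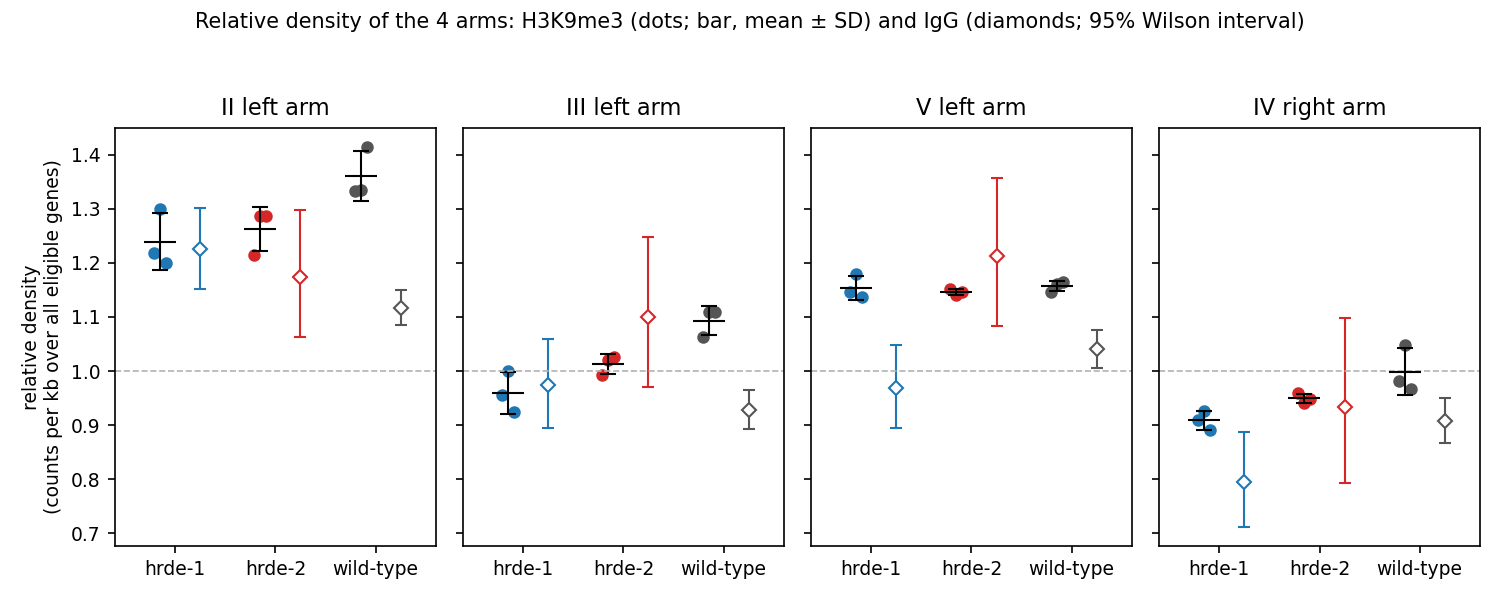
Relative density (counts per kb of exon over that of all genes within the length and identifier limits, no unit) of each arm in each library; filled dots are H3K9me3 libraries, black bars their mean ± SD (n = 3), and open diamonds the single IgG library of the same genotype with its 95% Wilson interval. The dashed line at 1 is the level over all such genes, and mutant dots sit below wild-type dots on the II, III and IV arms but not on the V left arm.

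In hrde-1 mutants the difference from wild-type was −8.94% on the II left arm, −12.2% on the III left arm, −9.03% on the IV right arm and −0.283% on the V left arm. In hrde-2 mutants it was −7.22%, −7.36%, −4.93% and −0.982% on the same arms. The exact permutation p was 0.1, the smallest possible, for II, III and IV in both mutants (adjusted p = 0.125), and 0.8 and 0.2 for V (adjusted p = 0.8 and 0.222). The V left arm was then set against the other 3 arms directly, a comparison chosen after these values were seen. The log2 ratio of the II, III and IV arms over the V arm averaged −0.10 in hrde-1 and −0.04 in hrde-2, against 0.05 in wild-type. Neither mutant overlapped wild-type (exact two-sided permutation p = 0.1 for each, the smallest possible). The hrde-1 libraries also had a higher mitochondrial share than wild-type. Relative density leaves mitochondrial counts out, and whether that share has a part in these differences was not tested.

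The centres of chromosomes II to V had higher means in the mutants, with relative densities of 0.882 ± 0.014 in hrde-1 and 0.865 ± 0.014 in hrde-2, against 0.826 ± 0.020 in wild-type (SD, n = 3 each). The opposite arms of the same chromosomes, the closest match in position, had 1.12 ± 0.038 in hrde-1 and 1.15 ± 0.025 in hrde-2, against 1.18 ± 0.048 in wild-type. The log2 ratio of the 4 arms over the opposite arms differed from wild-type by −0.03 in each mutant (exact two-sided permutation p = 0.4 for both, adjusted p = 0.571). A lower H3K9me3 density in the mutants was therefore not shown to be particular to the chosen side.

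By chromosome, the chosen arm was denser than the opposite arm on II and III and less dense on V and IV. Over the 9 H3K9me3 libraries the log2 ratio averaged 0.21 on II (0.12 to 0.30) and 0.17 on III (0.07 to 0.29). It averaged −0.21 on V (−0.40 to −0.04) and −0.37 on IV (−0.47 to −0.28). In each of the 4 chromosomes, all 9 libraries were on the same side of 0. The sides with the concentrated words printed above, II left, III left, IV left and V right, were thus the denser sides in each H3K9me3 library. In the hrde-1, hrde-2 and wild-type IgG libraries the ratio was 0.05, 0.13 and 0.03 on II and 0.06, 0.29 and −0.10 on III. It was −0.24, −0.25 and 0.19 on V and −0.44, −0.52 and −0.26 on IV. The higher level of the II left arm and the lower level of the IV right arm were thus also present in each IgG library. On III and V the hrde-1 and hrde-2 IgG libraries had the same sign as the H3K9me3 libraries, and the wild-type one had the other sign.

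The difference between H3K9me3 and IgG in this ratio was tested exactly, over the 64 ways to call 1 of the 4 libraries of each genotype IgG. It was 0.14 on II (two-sided permutation p = 0.03125, adjusted p = 0.0781), 0.09 on III (p = 0.25), −0.11 on V (p = 0.3125) and 0.03 on IV (p = 0.641), and the other adjusted p-values were 0.391, 0.391 and 0.641. For the 4 chromosomes together it was 0.04 (exact p = 0.03125, adjusted p = 0.0781), and no adjusted p was under 0.05. Against wild-type the ratio differed in hrde-1 mutants by −0.12 on II and −0.16 on III, and in hrde-2 mutants by −0.12 on both. The libraries did not overlap (exact p = 0.1, the smallest possible, adjusted p = 0.25). On V the mutants were closer to equality than wild-type, by 0.17 in hrde-1 and 0.09 in hrde-2 mutants, with overlap (exact p = 0.2 and 0.5). On IV the ratio differed by −0.04 in hrde-1 and 0.01 in hrde-2 (exact p = 0.6 and 0.9).

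**Figure D2:**
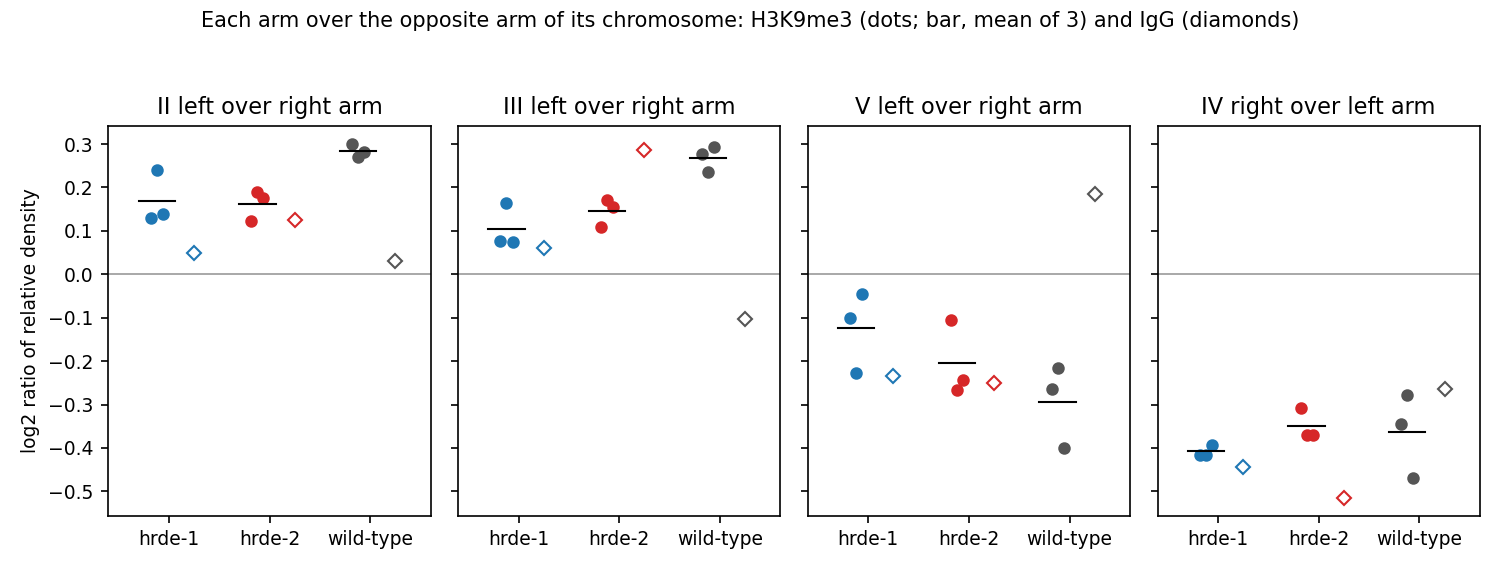
Log2 ratio of the relative density of each chosen arm over the opposite arm of its chromosome; dots are H3K9me3 libraries, bars their means (n = 3) and open diamonds the IgG library of the genotype. H3K9me3 dots lie above 0 on II and III and below 0 on V and IV, and the wild-type bars are the highest on II and III.

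Set against IgG by relative density, H3K9me3 was only slightly more concentrated on the 4 arms. The IgG relative density was 1.03 (95% interval by Wilson's method 0.990 to 1.07) in hrde-1, 1.13 (1.07 to 1.19) in hrde-2 and 1.02 (1.00 to 1.04) in wild-type. These intervals cover counting error only, since PCR copies are not independent molecules. The log2 ratio of H3K9me3 over IgG was 0.09 in hrde-1, −0.01 in hrde-2 and 0.22 in wild-type, a mean of 0.10 (exact permutation within genotype, two-sided p = 0.03125, adjusted p = 0.0781 over 5 tests). By arm it was 0.14 on II (exact permutation p = 0.0469), 0.11 on V (p = 0.0625), 0.12 on IV (p = 0.0156, the smallest possible) and 0.03 on III (p = 0.547). The adjusted p was 0.547 for III and 0.0781 for the others. The order of genotypes rests on 1 IgG library each, and the hrde-2 one was the shallowest. The size of the excess over IgG depended on the scaling. As CPM of all counts, rRNA and mitochondrial genes included, the mean log2 ratio for the 4 arms was 0.38 (exact permutation within genotype, p = 0.0156).

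Along the arms the signal was uneven. Each arm was divided into 8 windows of 500 kb counted from the end, the last of them cut short at 4 Mb, with 39 to 169 genes each. The densest of the 32 windows was II at 2700 to 3200 kb, at 1.73 ± 0.046 in hrde-1, 1.72 ± 0.13 in hrde-2 and 1.81 ± 0.12 in wild-type (SD, n = 3 each). The 3 IgG libraries summed gave 1.31 there, which was also the highest IgG value of the 32 windows. The sparsest in wild-type was III at 3200 to 3700 kb, at 0.758 ± 0.0074, 0.766 ± 0.010 and 0.790 ± 0.0037 in hrde-1, hrde-2 and wild-type libraries, with 0.850 in summed IgG. Wild-type means exceeded summed IgG in 26 windows, hrde-1 means in 24 and hrde-2 means in 26. The sum is of raw counts, and most came from the wild-type IgG library. That library held 12109 counts on the arms, against 2396 in hrde-1 and 1029 in hrde-2. The mutants were thus set mainly against wild-type IgG here. Single IgG libraries held as few as 2 counts in a window. Across the 32 windows the wild-type mean and summed IgG correlated with Pearson's r = 0.763, a description over windows that share their libraries and their base composition.

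On III the outermost window, at 200 to 700 kb, was the densest of its arm, with 1.41 ± 0.093 in hrde-1, 1.46 ± 0.066 in hrde-2 and 1.65 ± 0.081 in wild-type. On V the outermost window was likewise the densest, at 1.28 ± 0.059, 1.32 ± 0.012 and 1.36 ± 0.042 for hrde-1, hrde-2 and wild-type. On II the outermost window was the sparsest of its arm, at 0.909 ± 0.0070 in hrde-1, 0.939 ± 0.026 in hrde-2 and 0.937 ± 0.032 in wild-type. It was the only window of II below 1, the level over all genes within the limits, in all 3 genotypes. On IV the window at 700 to 1200 kb was highest, at 1.12 ± 0.044 in hrde-1, 1.19 ± 0.024 in hrde-2 and 1.28 ± 0.062 in wild-type, and density was lowest in the innermost window, at 0.768 ± 0.00345, 0.815 ± 0.021 and 0.828 ± 0.050.

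**Figure D3:**
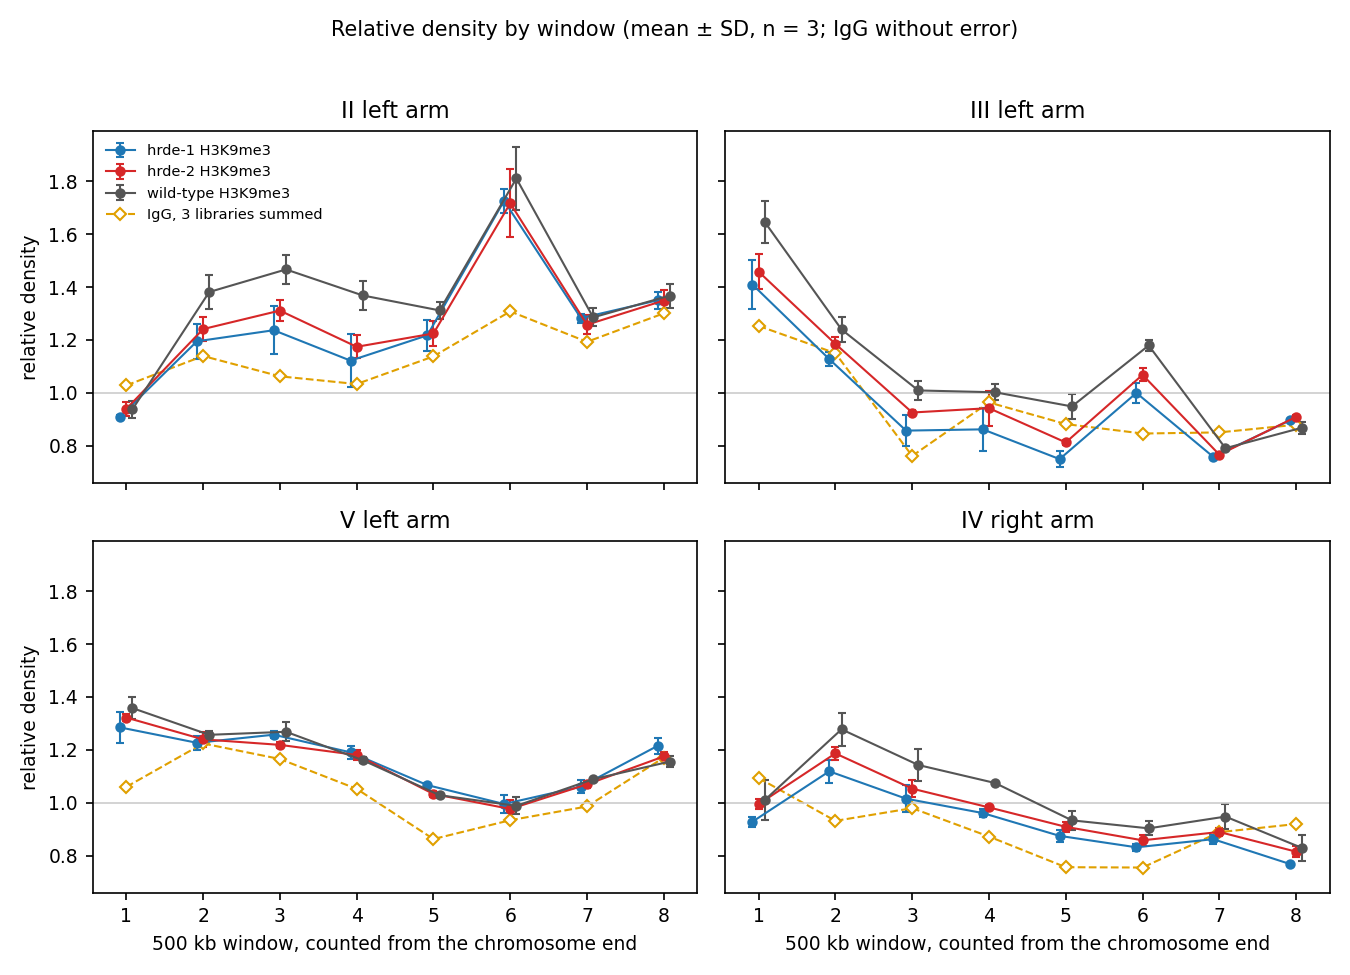
Relative density by 500 kb window on each arm, window 1 being the outermost; lines with filled dots are the H3K9me3 means of each genotype with SD (n = 3), and the dashed line with open diamonds is the 3 IgG libraries summed. The peak in window 6 of the II left arm is shared by all genotypes and by IgG, and the wild-type line runs above the mutant lines over windows 2 to 8 of II, windows 1 to 7 of III and all 8 windows of IV.

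Window counts were tested with edgeR's quasi-likelihood F-test, with TMM scaling and Benjamini-Hochberg adjustment over 218 windows of the 5 autosomes and X. In hrde-1 mutants 18 of the 32 windows fell and 0 rose, where 17.9% of all windows fell and 11.0% rose. The lower windows were 8 of 8 on IV, 7 of 8 on III, 3 of 8 on II and 0 of 8 on V. At an unadjusted p under 0.05, 21 windows were lower and 0 higher, and DESeq2 also called 0 higher. The log2 fold changes ran from −0.37 to 0.04 with a median of −0.13, and 28 of the 32 were below 0. The count was 11 without wild-type replicate 3, 8 without hrde-1 replicate 1 and 7 without hrde-1 replicate 3. On the opposite arms 10 of 32 windows fell, and of the 154 remaining windows 24 rose and 11 fell.

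In hrde-2 mutants 4 windows fell and 0 rose, where 3.67% of all windows fell and 10.6% rose, so the share of 4 in 32 was above the background for lower windows. Of these 3 were on III and 1 on IV. At an unadjusted p under 0.05, 15 windows were lower and 0 higher, and DESeq2 called 0 higher. The log2 fold changes ran from −0.24 to 0.05 with a median of −0.08, and 29 of 32 were below 0. The count of 4 ranged from 1 to 7 as single libraries were left out. It was 1 without wild-type replicate 3, hrde-2 replicate 1 or hrde-2 replicate 2, 2 without wild-type replicate 2 or hrde-1 replicate 1, and 7 without hrde-1 replicate 2. Between hrde-2 and hrde-1 mutants 0 windows rose and 0 fell by edgeR and by DESeq2, where 1.38% of all windows rose and 0.459% fell. At an unadjusted p under 0.05, 5 were higher in hrde-2 and 0 lower.

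The largest change was on III at 2200 to 2700 kb. The hrde-1 libraries gave 0.750, 0.778 and 0.719 there and the hrde-2 libraries 0.822, 0.807 and 0.807, against 0.920, 1.00 and 0.921 in wild-type. No mutant library reached the lowest wild-type value. The log2 fold change was −0.37 ± 0.04 for hrde-1 (SE, edgeR adjusted p = 0.000231) and −0.24 ± 0.04 for hrde-2 (adjusted p = 0.00676). The next window, III at 2700 to 3200 kb, had 0.982, 1.04 and 0.973 in hrde-1 and 1.04, 1.07 and 1.09 in hrde-2, against 1.15, 1.18 and 1.20 in wild-type. It also fell in both mutants, with log2 fold changes of −0.27 ± 0.04 in hrde-1 (adjusted p = 0.000918) and −0.16 ± 0.04 in hrde-2 (adjusted p = 0.0284). The outermost III window fell too, with −0.25 ± 0.06 in hrde-1 (adjusted p = 0.0106) and −0.20 ± 0.06 in hrde-2 (adjusted p = 0.0485).

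The only other window called in both mutants was IV at 1700 to 2200 kb. It had 0.971, 0.969 and 0.942 in hrde-1 and 0.978, 0.994 and 0.974 in hrde-2, against 1.08, 1.08 and 1.07 in wild-type. The fold change was −0.19 ± 0.03 in hrde-1 (edgeR adjusted p = 0.00386) and −0.15 ± 0.03 in hrde-2 (adjusted p = 0.0226). The wild-type libraries served both comparisons, so windows called in both are not independent evidence. The other IV windows changed by −0.12 to −0.22 in hrde-1 mutants, an almost even drop along the arm.

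On II the hrde-1 calls were 3 adjacent windows from 700 to 2200 kb. At 1200 to 1700 kb the hrde-1 libraries gave 1.22, 1.34 and 1.16 and the hrde-2 libraries 1.27, 1.34 and 1.33, against 1.43, 1.44 and 1.53 in wild-type. The fold change was −0.28 ± 0.06 in hrde-1 (edgeR adjusted p = 0.0083) and −0.18 ± 0.06 in hrde-2 (adjusted p = 0.0652). At 1700 to 2200 kb hrde-1 gave 1.07, 1.24 and 1.06 and hrde-2 1.13, 1.22 and 1.18, against 1.36, 1.32 and 1.43 in wild-type. The fold change there was −0.32 ± 0.09 in hrde-1 (adjusted p = 0.0185) and −0.24 ± 0.09 in hrde-2 (adjusted p = 0.0751). No hrde-1 or hrde-2 library overlapped wild-type in either window. The inner part of the arm, from 2200 kb inwards, changed by −0.14 to −0.03 in hrde-1 mutants with no call, the dense window at 2700 to 3200 kb included (−0.10, adjusted p = 0.328). On V the hrde-1 fold changes ran from −0.11 to 0.04 and the hrde-2 ones from −0.08 to 0.00. Neither edgeR nor DESeq2 called any V window in either mutant, and 1 was lower and 0 higher at an unadjusted p under 0.05 in each.

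**Figure D4:**
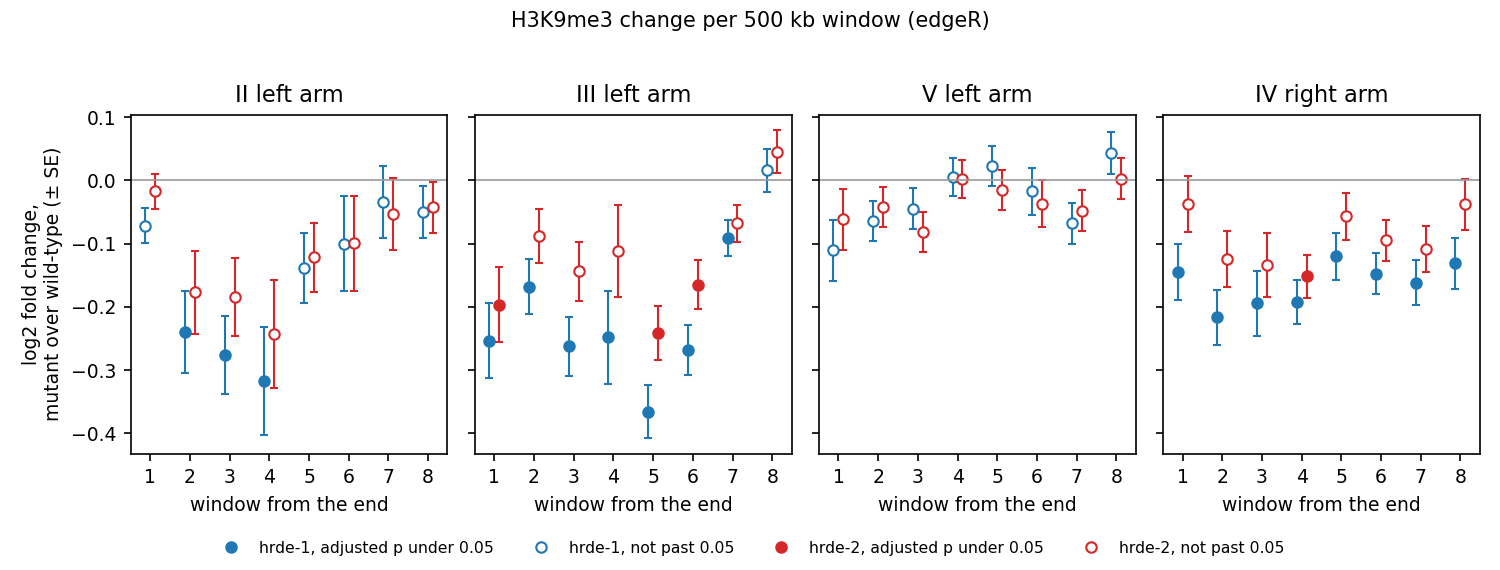
Log2 fold change of H3K9me3 counts (mutant over wild-type, ± SE from edgeR) in each 500 kb window, window 1 being the outermost; filled dots have an adjusted p under 0.05. Calls in hrde-1 cover all 8 windows of IV, 7 of III and 3 of II, calls in hrde-2 cover 3 of III and 1 of IV, and no V window is called.

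Gene by gene, edgeR called 37 of the 2615 tested arm genes lower in hrde-1 and 0 higher, where 0.572% of the 28691 genes tested were lower and 0.188% higher. At an unadjusted p under 0.05, 442 were lower and 44 higher, and DESeq2 also called 0 higher. The calls were 18 on II, 14 on III, 4 on IV and 1 on V. The lower share was 1.41% on these arms, 2.29% on the opposite arms and 0.215% in the centres. The median log2 fold change was −0.11 on these arms, −0.09 on the opposite arms and 0.07 in the centres, and 0.01 over all genes tested. The count of 37 was 9 without hrde-1 replicate 1, 7 without hrde-1 replicate 3 and 24 without hrde-2 replicate 2, so the number of calls depended on which libraries entered. Without wild-type replicate 3 there were 4 higher genes.

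In hrde-2 mutants 11 arm genes were lower and 1 higher, where 0.310% of all genes tested were lower and 0.185% higher. The lower share was 0.421% on these arms, close to that over all genes. It was 0.892% on the opposite arms and 0.0613% in the centres. There were 5 lower genes on II, 3 on III, 2 on IV and 1 on V. The lower count was 2 without hrde-2 replicate 1 or hrde-2 replicate 2, 6 without hrde-2 replicate 3 and 7 without wild-type replicate 3. Without wild-type replicate 3 the higher count was 5. Between the mutants 2 genes were higher in hrde-2 than in hrde-1 and 0 lower by edgeR and by DESeq2, where 0.209% of all genes were higher and 0.234% lower. At an unadjusted p under 0.05, 94 were higher and 33 lower. The 2 calls became 0 when hrde-1 replicate 1, hrde-1 replicate 2, hrde-2 replicate 1 or hrde-2 replicate 3 was left out, 1 without hrde-1 replicate 3 and 4 without wild-type replicate 3. Of the 37 genes lower in hrde-1, 36 had a log2 fold change below 0 in hrde-2 and 6 were also called there, with wild-type libraries shared.

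The gene with the largest fall in both mutants was linc-16 (WBGene00219728), a long intergenic non-coding RNA gene at II:1820242-1820946 on the minus strand (WS258, as for all gene positions here). As CPM per kb of exon (counts scaled to library size by TMM, divided by exon length), its level was 26.3, 15.7 and 18.3 in hrde-1 and 17.7, 21.0 and 24.6 in hrde-2, against 32.9, 48.1 and 61.1 in wild-type. The groups did not overlap. The log2 fold change was −1.25 ± 0.23 in hrde-1 (SE, edgeR adjusted p = 0.00133) and −1.16 ± 0.23 in hrde-2 (adjusted p = 0.00563). C08F1.10 (WBGene00015613, II:1785270-1786309), a protein-coding gene in the same window, had 36.1, 47.01 and 35.4 in hrde-1 and 38.7, 48.1 and 51.4 in hrde-2, against 64.2, 88.5 and 85.6 in wild-type. It fell by 0.98 on the log2 scale in hrde-1 (−0.98 ± 0.15, adjusted p = 4.58e-05) and by 0.76 in hrde-2 (−0.76 ± 0.15, adjusted p = 0.00423). Its neighbour C08F1.11 (II:1783451-1784481) was called in hrde-2 only (−0.74, adjusted p = 0.0465, and −0.54 with adjusted p = 0.183 in hrde-1).

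On III, C34C12.1 (WBGene00007920, III:3454345-3455850) fell in both mutants. This protein-coding gene is on the list of genes bound by HRDE-1 through small RNAs in mut-2 mutants. It had 31.4, 32.4 and 33.0 CPM per kb in hrde-1 and 35.7, 37.7 and 37.9 in hrde-2, against 51.7, 54.02 and 66.98 in wild-type, with no overlap. The log2 fold change was −0.85 ± 0.13 in hrde-1 (edgeR adjusted p = 5.59e-05) and −0.64 ± 0.13 in hrde-2 (adjusted p = 0.0061). On IV, the pseudogene Y73F8A.33 (WBGene00013537, IV:15515495-15520934) had 18.0, 16.0 and 18.2 in hrde-1 and 18.8, 18.1 and 19.9 in hrde-2, against 31.7, 30.2 and 29.7 in wild-type. Its log2 fold change was −0.82 ± 0.12 in hrde-1 (adjusted p = 4.58e-05) and −0.69 ± 0.12 in hrde-2 (adjusted p = 0.00153). It overlaps Y73F8A.32, and the counts use no strand, so reads of the pair cannot be told apart. Both genes kept the hrde-1 call in 13 of 13 settings.

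The F-box gene fbxb-19 (II:1688235-1689172) had 24.1, 27.8 and 25.0 in hrde-1 and 31.5, 27.0 and 22.9 in hrde-2, against 44.3, 51.8 and 40.0 in wild-type. It was called in both mutants (−0.79, adjusted p = 0.0055, and −0.70, adjusted p = 0.0245, edgeR). The remaining gene called in both was Y46H3C.7 (V:1692026-1694042), the single V gene called in hrde-1 and in hrde-2, named here after its values were seen. It had 51.6, 55.7 and 54.1 in hrde-1 and 51.1, 49.1 and 62.7 in hrde-2, against 68.7, 81.8 and 90.4 in wild-type (−0.58, adjusted p = 0.0111, and −0.56, adjusted p = 0.0206). It overlaps Y46H3C.5.

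Other genes called lower in hrde-1 mutants included srz-64, a predicted chemoreceptor gene on II (−0.95, edgeR adjusted p = 0.0447). Its level was 8.13, 12.4 and 7.43 in hrde-1 mutants, against 17.2, 25.3 and 15.1 in wild-type. It overlaps Y57G7A.8 and kept the call in 7 of 13 settings. The pseudogene F52C6.13 on II had 30.6, 22.1 and 25.4, against 37.5, 71.6 and 48.9 (−0.93, adjusted p = 0.0279). The F-box pseudogene fbxa-34 on III had 14.2, 19.4 and 15.8, against 34.0, 36.0 and 25.3 (−0.90, adjusted p = 0.00798). In hrde-2 mutants their fold changes were −0.68, −0.32 and −0.62, and none was called. R10F2.5 on III, which overlaps the cadherin gene cdh-1, had 24.3, 31.0 and 41.1 in hrde-1 mutants, against 60.8, 60.3 and 54.9 in wild-type (−0.85, adjusted p = 0.00325). K02F3.9 on III had 26.5, 23.9 and 21.5, against 36.9, 48.7 and 46.2 (−0.85, adjusted p = 0.0123). At these 5 genes the hrde-1 and wild-type libraries did not overlap.

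Genes called lower in hrde-2 mutants but not in hrde-1 mutants were WBGene00194661 on IV, B0353.1 on III, C08F1.11 above, and, outside the naming rule, zip-2 on III and the pseudogene math-27 on II. WBGene00194661, a protein-coding gene, had 18.0, 14.4 and 17.3 in hrde-2 and 22.5, 15.4 and 16.3 in hrde-1 mutants, against 35.3, 38.2 and 27.9 in wild-type. Its fold change was −0.996 in hrde-2 (edgeR adjusted p = 0.0306) and −0.88 in hrde-1 (adjusted p = 0.0555). B0353.1 had 11.0, 11.7 and 12.2 in hrde-2, against 22.8, 29.6 and 20.4 in wild-type. Its fold change was −0.99 in hrde-2 (adjusted p = 0.0456) and −0.67 in hrde-1 (adjusted p = 0.217). These genes lay on the same side of 0 in both mutants, and no difference between the mutants was called at them. zip-2, which encodes a bZIP transcription factor of the pathogen response, had 48.5, 51.1 and 53.5 in hrde-2, against 67.2, 75.9 and 94.97 in wild-type (−0.64, adjusted p = 0.00618). math-27, which overlaps 3 other gene models, had −0.56 in hrde-2 (adjusted p = 0.0211) and −0.35 in hrde-1 (adjusted p = 0.232). Of 13 settings, the hrde-2 call held in 5 for B0353.1, 7 for C08F1.11 and 8 for WBGene00194661. It held in 9 for math-27 and 10 for zip-2.

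A single arm gene was higher in hrde-2 mutants, Y14H12B.2 (WBGene00021192, II:3932178-3933740), a protein-coding gene. It had 35.2, 33.0 and 37.7 in hrde-2 and 22.8, 24.7 and 25.5 in hrde-1 mutants, against 20.6, 17.9 and 23.4 in wild-type. The fold change in hrde-2 was 0.73 ± 0.14 (edgeR adjusted p = 0.00536) and the call held in 13 of 13 settings, while hrde-1 gave 0.20 (adjusted p = 0.668). The difference between hrde-2 and hrde-1 at this gene was 0.53 (adjusted p = 0.0638). The genes that did differ between the mutants were the pseudogene Y53G8B.3 and the protein-coding gene T08E11.1. Y53G8B.3 (III:3105668-3111828) had 17.9, 12.6 and 17.7 in hrde-2, against 7.25, 9.28 and 10.9 in hrde-1 mutants, and 13.9, 13.5 and 9.09 in wild-type (0.80 ± 0.18, adjusted p = 0.0157). T08E11.1 (II:1836504-1840292) had 19.1, 16.7 and 18.8 in hrde-2, against 11.8, 11.3 and 11.4 in hrde-1 mutants, and 17.0, 17.0 and 18.4 in wild-type (0.66 ± 0.14, adjusted p = 0.0117). T08E11.1 was also lower in hrde-1 than in wild-type (−0.61, adjusted p = 0.0321). The IgG libraries held at most 18 counts at any gene in these paragraphs.

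**Figure D5:**
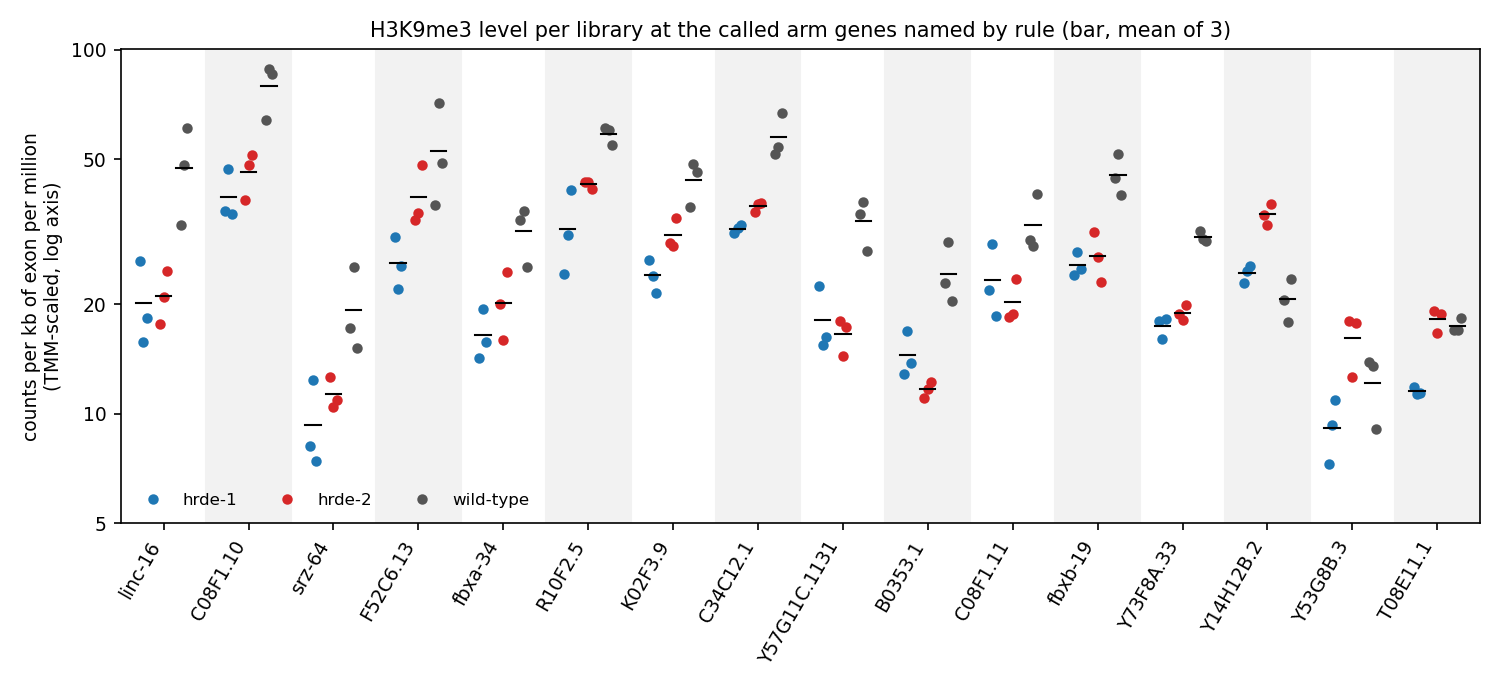
H3K9me3 level (CPM per kb of exon, TMM-scaled, log axis) at the called arm genes named by rule; dots are single libraries and bars the mean of 3. Most genes sit lower in both mutants than in wild-type, while Y14H12B.2 is higher in hrde-2, and Y53G8B.3 and T08E11.1 are lower in hrde-1 than in hrde-2. WBGene00194661 stands under its sequence name.

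Many of the 37 genes lower in hrde-1 mutants lay close together. Runs of at least 3 calls with gaps of at most 50 kb, a description made after the calls were seen, numbered 5. The longest lay at II:1749825-1840292 (90.5 kb) and held F36H5.8, fbxb-53, F36H5.4, C08F1.10, fbxb-13, math-2, linc-16 and T08E11.1. All 31 tested genes of that stretch had a log2 fold change below 0 in hrde-1 (median −0.45), and 28 of them in hrde-2 (median −0.32), where 4 were called. The 31 include the 8 calls that set the stretch. Over the whole II left arm, 709 of 953 tested genes were below 0 in hrde-1 and 693 in hrde-2. A second run on II at 1652510-1689172 held fbxb-15, duxl-1 and fbxb-19, 3 of 15 tested genes. On III the F-box genes fbxa-33, fbxa-34 and fbxa-37 formed a run at 1279627-1287119, with a median of −0.77 in hrde-1 and −0.56 in hrde-2. C39B5.10, srz-56, T20H9.6 and fbxa-7 formed another at 2238967-2251448, with medians of −0.80 and −0.47. All 3 tested genes of the fbxa run and all 4 of the other were called in hrde-1. Their hrde-1 medians are thus those of the called genes alone. The fifth, at III:2849066-2924758, held trpl-1, T20B6.2 and R10F2.5, 3 of 10 tested genes, all 10 below 0. Similar neighbouring copies can share reads, so the value of a single copy in these families is uncertain.

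The gene families of the arms were described by their counts and medians, and no difference between families was tested. F-box genes (fbxa, fbxb and fbxc) encode adaptors of ubiquitin ligases, and 186 of the 391 in the files lay on these arms, 111 on II and 64 on III. Of 184 tested, 9 fell in hrde-1, where 0.572% of all genes tested fell, and 162 had a fold change below 0, with a median of −0.28 beside −0.11 over all arm genes and 0.01 over all genes tested. In hrde-2 mutants 1 fell, near the 0.310% of all genes that fell there, and 151 were below 0, with a median of −0.22 beside −0.07 and 0.00. Falls of F-box genes were not particular to these arms. Of 205 tested outside them, 13 fell in hrde-1 (median −0.13) and 10 in hrde-2 (median −0.08). MATH and BATH genes, whose proteins carry a MATH domain, with a BTB domain in the BATH genes that joins them to ubiquitin ligases, numbered 75 of 92, all on II. Of these 3 fell in hrde-1 and 69 were below 0 (median −0.35), and 1 fell in hrde-2 and 64 were below 0 (median −0.26). Of the 17 tested outside the arms, 1 fell in hrde-1 (median −0.04) and 0 in hrde-2 (median 0.08). Pseudogenes numbered 361 tested, of which 9 fell in hrde-1 and 282 were below 0 (median −0.19), and 2 fell in hrde-2 and 262 were below 0 (median −0.12). Of 1680 pseudogenes tested outside the arms, 31 fell in hrde-1 (median −0.10) and 9 in hrde-2 (median −0.06). In hrde-2 the counts of all 3 groups on these arms were too low to be read against 0.310%.

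C-type lectin genes (clec), known for roles in immunity, had 0 calls among 46 in either mutant by edgeR and DESeq2, with 4 lower in hrde-1 and 3 in hrde-2 at an unadjusted p under 0.05, and medians of 0.00 in hrde-1 and −0.01 in hrde-2. At shares of 0.572% and 0.310% over all genes, no call among so few genes sets the family apart. Their level was high, with a median of 41.7 CPM per kb in wild-type against 22.8 over all arm genes. Nuclear hormone receptor genes (nhr), 44 of the 49 on V, had 0 calls by both tools and medians of −0.03 in hrde-1 and 0.03 in hrde-2. At an unadjusted p under 0.05, 3 were lower and 4 higher in hrde-1, and 2 lower and 1 higher in hrde-2. Among the chemoreceptor genes of these arms, 79 of them on V, 4 fell in hrde-1 mutants (median −0.11). By both tools 0 fell in hrde-2 mutants (median −0.10), with 8 lower and 2 higher at an unadjusted p under 0.05. The 79 on V had a median of −0.04 in hrde-1, and the 26 on IV one of −0.36. For the pseudogenes the hrde-1 medians were −0.20 on II, −0.32 on III, −0.24 on IV and −0.06 on V.

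Arm genes outside the F-box, MATH, BATH and pseudogene lists numbered 2046. This set was added after the family values were seen. Their relative density was 1.12 ± 0.030 in hrde-1 and 1.14 ± 0.021 in hrde-2, against 1.19 ± 0.024 in wild-type, without overlap. The hrde-1 medians of these genes were −0.12 on II, −0.10 on III, −0.14 on IV and −0.00 on V. Of the study's own lists, 144 tested arm genes had small RNAs on HRDE-1 in mut-2 mutants. Of these, 1 fell in hrde-1 mutants (median −0.13) and 2 in hrde-2 mutants (median −0.10). The medians over all arm genes were −0.11 and −0.07, and 0.572% and 0.310% of all genes tested fell. The counts of this list and of those below are too low to be read against these shares. Of the 52 on the list from the mut-2; hrde-2 double mutant, 1 fell in each mutant, with medians of 0.03 and −0.00. Neither of these genetic backgrounds was among the strains compared here. The study also lists HRDE-1 targets for wild-type and for hrde-2 worms, and uses target sets of the CSR and WAGO small RNA pathways. Those sets were not examined on the arms, so the counts above say nothing about them. Of 26 arm genes on the list of higher mRNA in the hrde-1 strain, edgeR and DESeq2 called 0 in hrde-1, where 9 were lower and 1 higher at an unadjusted p under 0.05, and 22 were below 0 (median −0.20). Of 98 on the list for the hrde-2 strain, 1 fell in hrde-1. Both tools called 0 in hrde-2, where 12 were lower and 1 higher at an unadjusted p under 0.05, with medians of −0.05 in hrde-2 and −0.08 in hrde-1.

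The 3 genes of each arm with the highest level were described as well. Over the 2615 tested genes the wild-type level had a median of 22.8 CPM per kb, with 9.42 and 50.4 at the 10th and 90th percentiles, beside a median of 19.1 over all tested genes within the limits. By arm the median was 26.8 on II, 19.8 on III, 22.5 on V and 19.9 on IV. The highest was linc-90, a long non-coding RNA gene on III that overlaps gei-4, with 361, 291 and 280 in hrde-1, 260.5, 265 and 288 in hrde-2 and 269.8, 403 and 323 in wild-type. The other highest genes were W02B3.3 and WBGene00020704 on III, T05A8.8, clec-126 and Y8A9A.2 on II, the non-coding RNA gene WBGene00195705, Y105C5B.9 and Y116A8B.1 on IV, and B0554.2, Y46H3D.8 and grl-31 on V. At these 12 genes the wild-type IgG library held from 1 count (grl-31) to 86 counts (Y8A9A.2), with 18 at linc-90. Its mean was 4.61 counts per arm gene, and how far these genes stood above IgG was not tested. None of the 12 was called in any comparison, while called genes such as C08F1.10, Y46H3C.7 and zip-2 had wild-type means above the 90th percentile. Not called either were the genes with the most counts in the densest window (B0454.8 and ZK355.2) and in the sparsest (Y53G8AM.8 and pitp-1).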

How the data were processed

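CUT&Tag fragments were counted by the authors. Per the file headers, featureCounts (Subread 2.0.1) was run on paired-end alignments and counted fragments over exons of the WS258 gene set, summed by gene, without strand, each fragment going to the gene it overlapped most. Reads had been aligned with Bowtie2 2.5.0. The deposited values are raw counts, 1 file for each of the 12 libraries, 9 with H3K9me3 and 3 with IgG. Introns and intergenic repeats do not enter, removal of duplicates is not given in the sources used here, and fragments from similar gene copies may be placed at any copy. Names and types came from Ensembl release 115 (46564 of 46760 IDs, 2236 of the 2625 arm genes with a name) and RefSeq (364 more), leaving 25 without one.

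Genes were tested in R 4.3.3 with edgeR 4.0.16, using TMM scaling, filterByExpr at a minimum count of 10 and the quasi-likelihood F-test, on all 9 H3K9me3 libraries, with Benjamini-Hochberg adjustment over 28691 genes and a threshold of 0.05. Window counts were fitted alike. Levels per gene are CPM per kb of exon, with TMM-scaled library sizes. Relative densities were compared with exact permutation tests. On simulated hrde-1 against wild-type counts the same code recovered 184 of 200 genes changed by 1 on the log2 scale (92%, 28513 genes tested, 13 false calls) and 18 of 20 windows changed by 0.2 (218 tested, 0 false calls). The changed genes were drawn only from those with high mean counts. Counts were drawn independently with a common dispersion, so shifts of a library shared by many windows were not simulated. The rates therefore need not hold for these data.

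DESeq2 1.42.0, RLE scaling, no filter, a replicate block, other density definitions, a 3 Mb limit and leaving out libraries were tried. Same-numbered libraries were not treated as paired (9 pairs, r from −0.045 to 0.114, 1 above 0.1). A gene with no count may have had up to 3 counts, for counting error only. Genes named were, per comparison and direction, the 8 called with the largest change, the 3 densest of each arm, and the 2 with most counts in the densest and sparsest windows. The arms, families and lists were chosen with earlier results of these data known. Peak calls were not analysed here.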

Additional observations from a re-analysis of the deposited data

Results flagged for a closer look

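The change at Y53G8B.3 and T08E11.1 differed between the mutants by a direct test of hrde-2 against hrde-1. The log2 ratio of hrde-2 over hrde-1 was 0.80 at the pseudogene Y53G8B.3 (edgeR adjusted p = 0.0157), where hrde-1 gave −0.37 and hrde-2 0.44 against wild-type, neither called. It was 0.66 at T08E11.1 (edgeR adjusted p = 0.0117), where hrde-1 gave −0.61 and hrde-2 0.05 against wild-type. The calls held in 9 and 8 of 13 settings. Both genes are single calls among 2615 tested on these arms, where 0.209% of all genes tested were called higher in this comparison.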

How the results depend on the processing

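With 3 libraries a group the exact permutation test of density between mutant and wild-type cannot pass 0.05, and IgG has 1 library a genotype with 0.392 to 4.61 counts per arm gene, too few for single genes. Of 397 alternatives to 34 results, 241 were to tested values, of which 219 kept direction and side of the threshold. Among these, the alternatives for mutant against wild-type could change direction only, since their side of the threshold was fixed. The other 156 were to counts of calls, of which 124 stayed within 1.5 times. Without the low-count filter 56 arm genes fell in hrde-1 and 19 in hrde-2, 3 rose in hrde-2, and 1 was lower in hrde-2 than in hrde-1. DESeq2 gave 53 genes lower in hrde-1, 2 higher in hrde-2, and 12 windows lower in hrde-2, which numbered 7 when all genes were summed. Libraries were not treated as paired by replicate number in the main fit, though 6 of 9 correlated best with a library of their own number. Whether same-numbered libraries shared a preparation was not tested. With the replicate block 2 genes rose in hrde-2 and 51 fell in hrde-1. As CPM of all counts, the density difference of hrde-2 from wild-type turned to 0.197 CPM per kb for the 4 arms, 1.38 for V and 0.218 for IV (exact permutation p = 0.8, 0.4 and 0.9), and H3K9me3 over IgG came to 0.31 on III and 0.39 on V (exact p = 0.0156 each). With the 3 Mb limit H3K9me3 over IgG was 0.12 for the 4 arms (exact p = 0.0625) and 0.11 on IV (exact p = 0.0781). Without F-box, MATH, BATH and pseudogene members the V difference in hrde-1 was 6.18e-05. The cause was not tested for any of these.

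Leaving out single libraries gave 7 to 48 genes lower and 0 to 4 higher in hrde-1, 2 to 15 lower and 1 to 5 higher in hrde-2, and 0 to 4 higher in hrde-2 than in hrde-1. Windows lower numbered 7 to 18 in hrde-1 and 1 to 7 in hrde-2. The V density difference in hrde-1 ran from −0.0158 to 0.00518, the II log2 ratio of H3K9me3 over IgG from 0.12 to 0.14, and the ratio of the 4 arms to the opposite arms, H3K9me3 minus IgG, from 0.0331 to 0.0443. The last 2 lost an unadjusted p under 0.05 without some of the libraries.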
